A study of Mus musculus with 32 samples.

Results

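Keratins are the genes described here, and 27 of the 50 numbered keratin genes on the array entered the description. The array carried 45616 gene or transcript names in all. Members were all genes with a symbol of Krt followed by a number, each read by its probe with the highest mean level over the 32 arrays. They were selected on their signal, since a gene was kept where the scanner marked its spot as well above background on at least 4 arrays, so the number kept and their detection describe these arrays and support nothing further. The level of a gene is log2 of the processed spot signal minus log2 of the 75th percentile of the same array, so 0 is the brightness of the 75th percentile. Levels of different genes come from different probes and are not set against each other.

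The material was RNA from mice implanted with cells of MCG 101, a methylcholanthrene-induced mouse sarcoma kept by transplantation. Hosts were EP2 wild type or EP2 knockout, EP2 being the prostaglandin E2 receptor encoded by Ptger2, and all of them carried the implanted tumor, with no tumor-free group. Each of the 4 groups held 8 arrays, 4 labelled female and 4 male: stroma and tumor of wild-type hosts, and stroma and tumor of knockout hosts. The labels give the tissue as tumor or tumor stroma and state neither the strain, the age, the time after implantation nor how the stroma was separated. The genotype is that of the host, and the genotype of the implanted cells is not given in the sources used here.

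Keratins build the intermediate filaments of epithelial cells from paired type I and type II chains, and the genes lie in a type I and a type II cluster, with Krt18 as a type I gene beside Krt8 in the type II cluster. The pair Krt5 and Krt14 marks basal epidermis, Krt1 and Krt10 the layers above it, Krt8 and Krt18 single-layered epithelia, and further members mark the inner root sheath or the shaft of the hair. A sarcoma is a tumor of mesenchymal cells, which are known for vimentin rather than keratin filaments, although some sarcomas carry Krt8 and Krt18.

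The single probe for Ptger2 was no dimmer in the arrays labelled knockout. Its level was -3.74 ± 0.49 (SD, n = 8) in knockout stroma against -4.60 ± 0.97 (n = 8) in wild-type stroma, and -4.51 ± 0.76 against -5.54 ± 0.94 in tumor (n = 8 each). Whether the knockout removes the stretch that this probe reads is not given in the sources used here, so it does not check the genotype labels, and every genotype named below is the labelled one.

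Several arrays stood apart from their groups. Wild-type tumor 5 had 42 keratins well above background, where the other 31 arrays had between 6 and 18 with a median of 13, and 8 keratins were well above background on that array alone. Without it, 23 keratins would have been kept. Wild-type tumor 5 also had 483 spots flagged as outliers, against 58 to 175 on the other arrays. The arrays labelled wild-type stroma 65 and 82 resembled tumor, with skeletal muscle markers low and cell cycle genes high, and on 3 stroma arrays the sex-linked genes went against the sex label (wild-type stroma 9 and knockout stroma 95 and 99). Between 47.8% and 75.2% of probes were well above background on an array, no spot was saturated, and the number of arrays limits the precision. The labels do not say whether each array is a separate mouse, so p-values measure the spread between these samples.

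Detection was uneven across the keratin types. Krt10, Krt16, Krt79 and Krt222 were well above background on all 32 arrays, and 8 keratins in all reached at least 29 arrays. Krt1, Krt12, Krt76 and Krt90 did so on 0 arrays and 19 keratins on 1 to 3. Krt10 and Krt1 form the pair of the epidermal layers above the basal one, and here only the probe of the first was detected. Of the basal keratins, Krt5 passed on 6 arrays and Krt14 on 4. The 5 keratins of simple epithelium on the array (Krt7, Krt8, Krt18, Krt19 and Krt20) were all kept, as were the 4 of wounds, companion layer and ducts (Krt16, Krt17, Krt75 and Krt79). Of 13 hair shaft keratins 5 were kept (Krt31, Krt36, Krt83, Krt84 and Krt86), of 8 inner root sheath keratins 4 (Krt25, Krt27, Krt71 and Krt73), of 7 keratins of the upper epidermis 3 (Krt2, Krt9 and Krt10), of 4 keratins of internal stratified epithelia 1 (Krt13), and of 6 others 3 (Krt23, Krt80 and Krt222). Krt13, Krt14, Krt71, Krt73 and Krt75 lay just inside the limit with 4 arrays, and the basal keratin Krt15 lay just outside with 3. These counts include spots flagged as outliers, whose level was not used. That holds for 2 of the 4 arrays of Krt71 and 1 of the 4 of Krt73, so both reach the limit only with such spots. The 50 genes divide equally between chromosome 11, with 25, and chromosome 15, with 25.

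**Figure D1:**
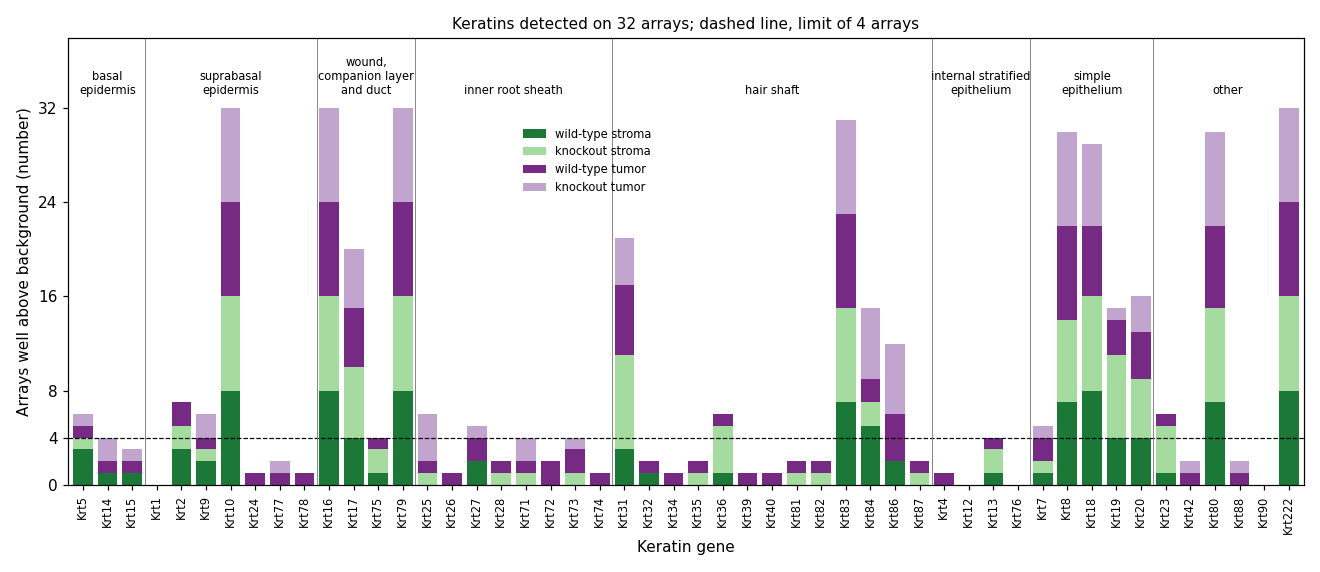
Number of arrays, of 32, on which each of the 50 keratins was well above background, stacked by group; the dashed line marks the limit of 4 arrays. Krt10, Krt16, Krt79 and Krt222 reach 32 arrays, while 4 keratins have no bar.

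**Figure D2:**
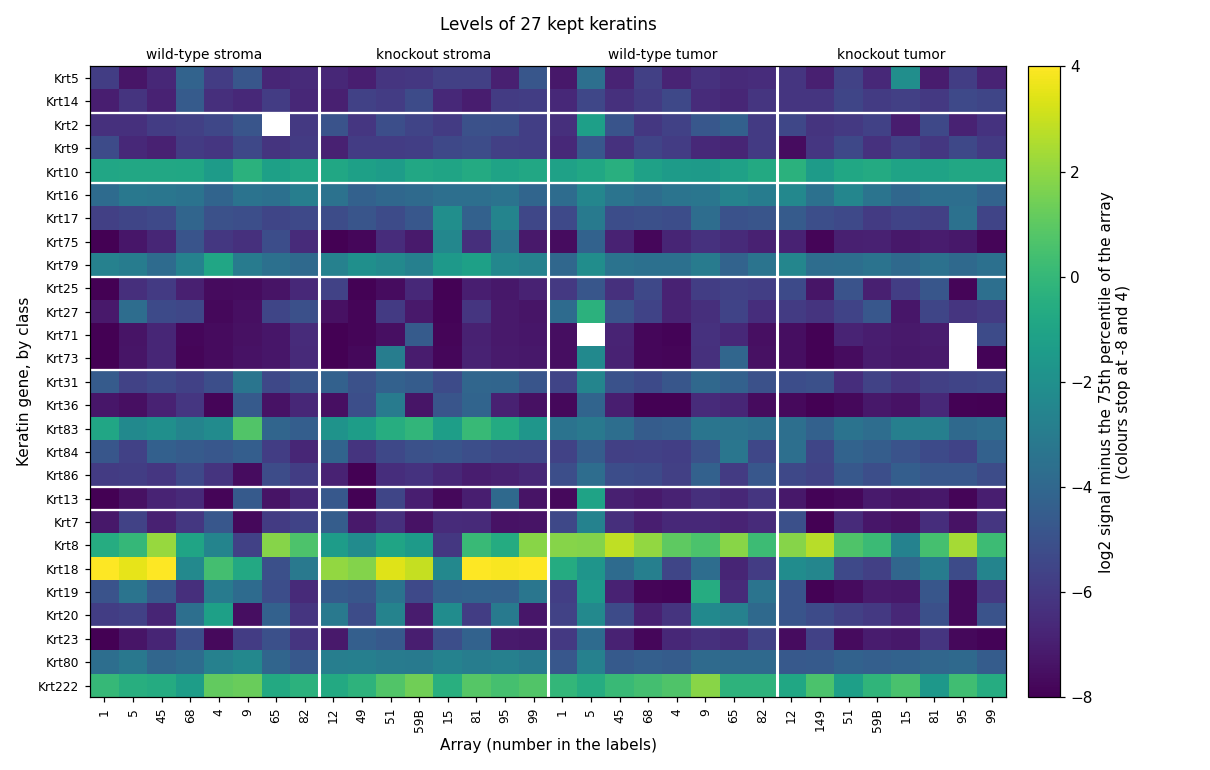
Level of the 27 kept keratins (rows, by class) on each of the 32 arrays (columns, by group), as log2 relative to the 75th percentile of the array; white cells are the 4 missing values. Krt18 is brighter in most stroma than in the tumor columns, and the column of wild-type tumor 5 is bright for many keratins that are dim elsewhere.

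The first question was which keratins differ between stroma and tumor, over both genotypes. Of the 27 keratins 8 passed, 4 higher in stroma (Krt18, Krt83, Krt80 and Krt79) and 4 lower (Krt8, Krt86, Krt25 and Krt27). Across the 29697 genes tested 59.5% passed, 24.8% higher and 34.7% lower, so 8 of 27 is not above the background share. Krt86 was well above background on 2 stroma and 10 tumor arrays, and Krt25 on 1 and 5. Both met the limit of 4 arrays only through tumor, where they were higher, so their calls here and below are a description. The median difference over the keratins was 0.09 on the log2 scale against -0.13 over all genes. The test was limma with Benjamini-Hochberg adjustment over all genes, 1 mean for each tissue, genotype and sex, and an adjusted p under 0.05.

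Krt18 and Krt8, whose proteins pair in the filaments of simple epithelia, went opposite ways. The Krt18 level ran from -5.08 to 4.50 in wild-type stroma (median -0.17) and from -2.42 to 5.57 in knockout stroma (median 3.19). In tumor it ran from -6.76 to -0.62 in wild-type hosts (median -3.74) and from -5.74 to -2.17 in knockout hosts (median -3.51). Stroma was high for this gene on 15 of 16 arrays when set against the tumor median, and the low stroma arrays, wild-type stroma 65 at -5.08 and 82 at -3.14 with wild-type stroma 68 at -2.37, wild-type stroma 9 at -0.75 and knockout stroma 15 at -2.42, lay within the tumor range. The mean was 1.42 ± 3.24 (SD, n = 16) in stroma and -3.84 ± 1.76 (n = 16) in tumor. The log2 difference was 5.26 ± 0.74 (SE, normal-approximation 95% interval 3.82 to 6.71, adjusted p = 1.22e-06), or 38.4-fold. These are pieces of tissue, so more cells of a type and more RNA per cell cannot be told apart. The difference was 5.75 without wild-type stroma 65 and 82, 5.30 without wild-type tumor 5 and 4.68 without the 3 arrays against their sex label, and it was higher on 6 of 6 array slides (2.56 to 8.18).

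The Krt8 level ran the other way. In wild-type stroma it lay between -5.70 and 2.14 (median -0.30), and in knockout stroma between -6.07 and 1.86 (median -1.18). In wild-type tumor it lay between 0.21 and 2.87 (median 1.81), and in knockout tumor between -2.66 and 2.71 (median 0.57). Of 16 stroma arrays 13 were below the tumor median and the tissues overlapped, with wild-type stroma 65 at 1.83 within the tumor range and knockout tumor 15 at -2.66 as the lowest tumor array. The stroma mean was -0.998 ± 2.36 and the tumor mean 1.13 ± 1.36 (SD, n = 16 each), so stroma fell by 2.12 ± 0.67 on the log2 scale (SE, adjusted p = 0.00813), 4.36-fold. The difference was -2.80 without wild-type stroma 65 and 82 (adjusted p = 0.000332) and negative on 6 of 6 slides (-5.05 to -1.24).

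**Figure D3:**
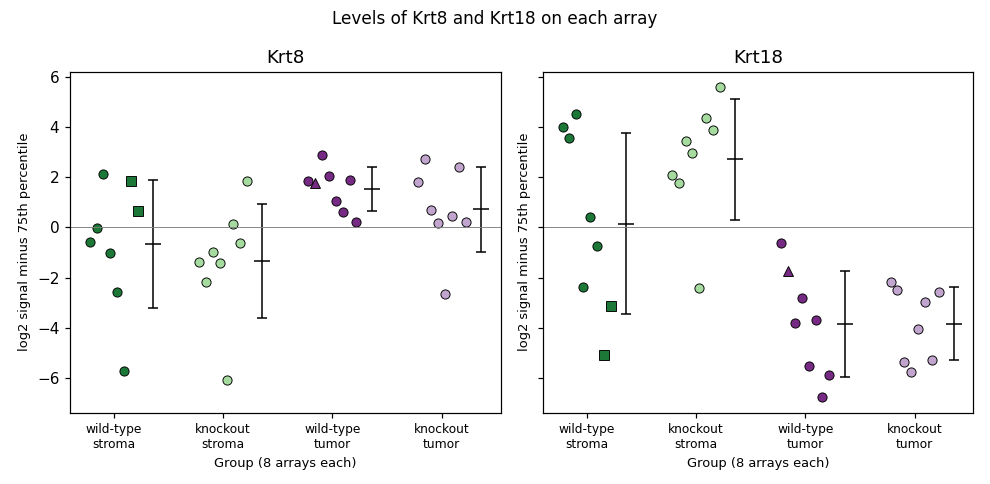
Level of Krt8 and of Krt18 on each array (points; vertical axis log2 relative to the 75th percentile of the array) in the 4 groups, with the mean ± SD of each group of 8; squares are wild-type stroma 65 and 82 and triangles wild-type tumor 5. Krt8 has its higher means in the tumor groups (1.53 and 0.72) and Krt18 in the stroma groups (0.14 and 2.70).

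The pair are neighbours on chromosome 15 (GRCm38.p6, the RefSeq build): Krt8 spans 101996711 to 102004342 on the minus strand and Krt18 spans 102028216 to 102032026 on the plus strand, with 23873 bases between them. Their promoters, from 250 bases before to 50 after the RefSeq start, are shown because these adjacent genes differed in opposite directions. Capitals mark the letters TATAAA on either strand.
Krt8 promoter, chr15:102004293-102004592, minus strand: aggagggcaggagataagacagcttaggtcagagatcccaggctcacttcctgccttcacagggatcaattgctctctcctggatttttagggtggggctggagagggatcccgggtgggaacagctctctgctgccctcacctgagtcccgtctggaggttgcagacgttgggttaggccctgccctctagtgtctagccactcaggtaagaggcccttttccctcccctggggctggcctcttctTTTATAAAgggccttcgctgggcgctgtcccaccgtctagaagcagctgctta
Krt18 promoter, chr15:102027966-102028265, plus strand: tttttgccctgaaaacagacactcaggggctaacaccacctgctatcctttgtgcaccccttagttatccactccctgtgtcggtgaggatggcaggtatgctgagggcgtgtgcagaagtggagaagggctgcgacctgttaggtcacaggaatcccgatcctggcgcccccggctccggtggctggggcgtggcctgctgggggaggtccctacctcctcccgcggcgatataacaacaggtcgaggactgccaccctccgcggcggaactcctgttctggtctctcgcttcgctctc
The Krt8 window held 2 overlapping matches to TATAAA, 1 on each strand, from position 248, and was 58.0% G and C. The Krt18 window was 61.3% G and C and held, on either strand, no match to the TATA box TATAAA, to the GC box GGGCGG, to the AP-1 motif TGANTCA or to the CCAAT box. A promoter was listed for 20 of the 27 kept keratins, and 9 of these held TATAAA, against 13.6% of the 32851 promoters of the same length in the table. The GC box was in 2 (35.7% of all), the AP-1 motif in 1 (7.81%) and the CCAAT box in 7 (37.4%). The matches describe the letters in these windows only.

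The other simple keratins were detected on fewer arrays. Krt19, a type I chain of ducts and many glands, was well above background on 4 of the wild-type and 7 of the knockout stroma arrays (medians -4.81 and -4.31), and on 3 of the wild-type and 1 of the knockout tumor arrays (medians -6.16 and -7.19). Its stroma level was higher by 1.34 ± 0.62 (SE) and did not pass (adjusted p = 0.0636). Wild-type tumor 9 at -0.57 and wild-type tumor 5 at -1.52 lay above all 16 stroma arrays, which reached -3.00. Without wild-type tumor 5 the difference was 1.67 (adjusted p = 0.011), and it also passed without any 1 of wild-type stroma 68 or 82, wild-type tumor 9 or knockout tumor 12 or 81 (1.47 to 1.68). Krt20, known from gut lining and urothelium, had group medians between -5.75 and -4.18 and passed on 4, 5, 4 and 3 arrays of the 4 groups. Krt7, of glandular ducts, was detected on 5 arrays in all, 1 or 2 in each group.

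Other genes of simple epithelium and other cell types are given beside these values. Of 16 listed partners of simple keratins 11 were tested, and 3 were higher in stroma and 1 lower. The higher ones were the epithelial factor Elf3 (2.80), the tight junction gene Cldn7 (1.07) and the membrane protease St14 (1.0), and Esrp1, a splicing factor of epithelial cells, was lower (-0.64). Epcam, a surface marker of simple epithelium, was well above background on 3 arrays, Cdh1 on 8 and Rab25 on 0. All 8 skeletal muscle markers were higher in stroma (median 6.22), and their mean level ran from 1.60 (wild-type stroma 82) to 9.0 in stroma and from -3.40 to 6.04 in tumor. Of 7 adipocyte markers 6 were higher in stroma (median 5.05), with a mean level from -2.63 to 4.04 in stroma and from -5.0 to 0.25 in tumor. All 8 cell cycle genes were lower in stroma (median -2.69). All 10 mesenchymal markers were well above background on all 32 arrays, 2 higher and 5 lower in stroma. The part of these cell types in the keratin differences was not tested.

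Hair shaft keratins divided by gene. Krt83, a type II keratin of the hair cortex, ran from -4.39 to 0.76 in wild-type stroma (median -2.26) and from -1.83 to 0.10 in knockout stroma (median -0.97). In tumor it kept to a narrow range, from -4.51 to -3.14 in wild-type hosts (median -3.50) and from -4.27 to -2.82 in knockout hosts (median -3.65). Knockout stroma lay wholly above the tumor arrays, and the tissues no longer overlapped once wild-type stroma 65 and 82 were left out. Those were the stroma arrays within the tumor range, and the share of all genes without overlap was not counted. Stroma was higher by 2.04 ± 0.35 (SE, adjusted p = 1.62e-05), 4.11-fold, with means of -1.57 ± 1.40 and -3.61 ± 0.49 (SD, n = 16 each). The difference was 2.48 without wild-type stroma 65 and 82, and positive on 6 of 6 slides (0.97 to 2.95).

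Krt86, another type II hair cortex keratin, was lower in stroma. It ran from -7.59 to -5.20 in wild-type stroma (median -5.87) and from -7.97 to -6.24 in knockout stroma (median -6.76), where it was well above background on 2 and 0 arrays. In tumor it ran from -5.93 to -3.72 (median -5.15) and from -5.63 to -4.43 (median -4.94), well above background on 4 and 6 arrays. Each of the 16 stroma arrays lay below the tumor median. Stroma fell by 1.42 ± 0.22 on the log2 scale (SE, adjusted p = 4.81e-06), 2.67-fold, with means of -6.42 ± 0.75 and -5.00 ± 0.57 (SD, n = 16 each), and the difference was negative on 6 of 6 slides (-2.37 to -0.63). Krt86 (101473478 to 101479983) and Krt83 (101485130 to 101491512) are adjacent on chromosome 15 with 5146 bases between them, and they share an older RefSeq name. Their probes differed in opposite directions, and how far either probe reads RNA of the neighbouring gene was not tested.

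Krt31, a type I chain of the cortex, had medians of -5.23 in wild-type stroma, -4.41 in knockout stroma, -4.89 in wild-type tumor and -5.57 in knockout tumor, and its difference over both genotypes was 0.33 ± 0.25 (SE, adjusted p = 0.270), or 0.50 (adjusted p = 0.0327) without wild-type tumor 5. Krt36, a type I hair and nail keratin, was detected on 1, 4, 1 and 0 arrays and differed by 0.99 ± 0.44 (SE, adjusted p = 0.0556), which passed without any 1 of 8 arrays (adjusted p 0.0126 to 0.0477). Krt84, a type II chain of tongue and nail, was detected on 5, 2, 2 and 6 arrays with medians of -4.75, -5.25, -5.55 and -4.72. Among 53 genes of the keratin-associated proteins, the matrix in which hair keratins lie, 25 were tested, and 1 was higher in stroma (Krtap11-1, 2.75) and 10 lower, among them Krtap4-13 (-0.86) and Krtap4-6 (-0.79). Of 6 tested hair follicle genes 2 were higher (Padi3, which modifies hair proteins, 2.01) and 2 lower (S100a3, of the hair cuticle, -2.05, and the hair-inducing factor Lef1, -2.13).

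Of the inner root sheath keratins, Krt25 was lower in stroma, though it was well above background on 6 arrays only, with 1 in stroma. It ran from -8.47 to -5.96 in wild-type stroma (median -7.16), from -7.94 to -5.64 in knockout stroma (median -7.10), from -6.84 to -4.77 in wild-type tumor (median -5.80) and from -7.85 to -3.64 in knockout tumor (median -5.55). All but 1 stroma array lay below the tumor median. Stroma fell by 1.29 ± 0.34 (SE, adjusted p = 0.00211), and the difference was negative on 5 of 6 slides. Krt27 fell by 1.08 ± 0.41 (SE, adjusted p = 0.0269) with medians of -5.47, -7.25, -5.60 and -5.93, and it was well above background on 2 stroma and 3 tumor arrays. Wild-type tumor 5, at -0.27, was its highest array, and the difference was -0.80 (adjusted p = 0.0381) without it and -0.93 (adjusted p = 0.0514) without wild-type stroma 1. The call for Krt27 also ended once slides entered the fit as fixed blocks (-1.02, adjusted p = 0.064) and without the 3 arrays against their sex label (-0.96, adjusted p = 0.0804). Krt71 and Krt73 did not pass and were detected on 4 arrays each, counting spots flagged as outliers.

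Further keratins of skin appendages and differentiating epithelia were higher in stroma. Krt79, of the ducts of sebaceous glands, was well above background on all 32 arrays. It ran from -3.88 to -0.89 in wild-type stroma (median -2.98), from -2.79 to -1.19 in knockout stroma (median -2.40), from -4.16 to -2.14 in wild-type tumor (median -3.50) and from -3.91 to -2.49 in knockout tumor (median -3.63). The groups overlapped, with 14 of 16 stroma arrays above the tumor median. Its difference was 0.88 ± 0.24 (SE, adjusted p = 0.00278), 1.85-fold, and was positive on 6 of 6 slides (0.10 to 1.86). Of 5 tested sebaceous gland genes 3 were higher in stroma and 2 lower.

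Krt80, a type II chain that appears as epithelial cells differentiate, ran from -4.69 to -2.40 in wild-type stroma (median -3.72) and from -3.12 to -2.70 in knockout stroma (median -2.89). In tumor it ran from -4.72 to -2.71 (median -4.15) and from -4.64 to -3.90 (median -4.31). Knockout stroma was the tightest of the groups and lay above 15 of the 16 tumor arrays, wild-type tumor 5 being the other. Stroma was higher by 0.96 ± 0.20 (SE, adjusted p = 0.000145), 1.94-fold, and the difference was positive on 6 of 6 slides (0.75 to 1.23). A second Krt80 probe gave the same direction with a difference of array means of 1.61. Krt222, a keratin-like type I gene, had group medians between -0.39 and 0.60 and differed by 0.17 ± 0.28 (SE, adjusted p = 0.628).

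**Figure D4:**
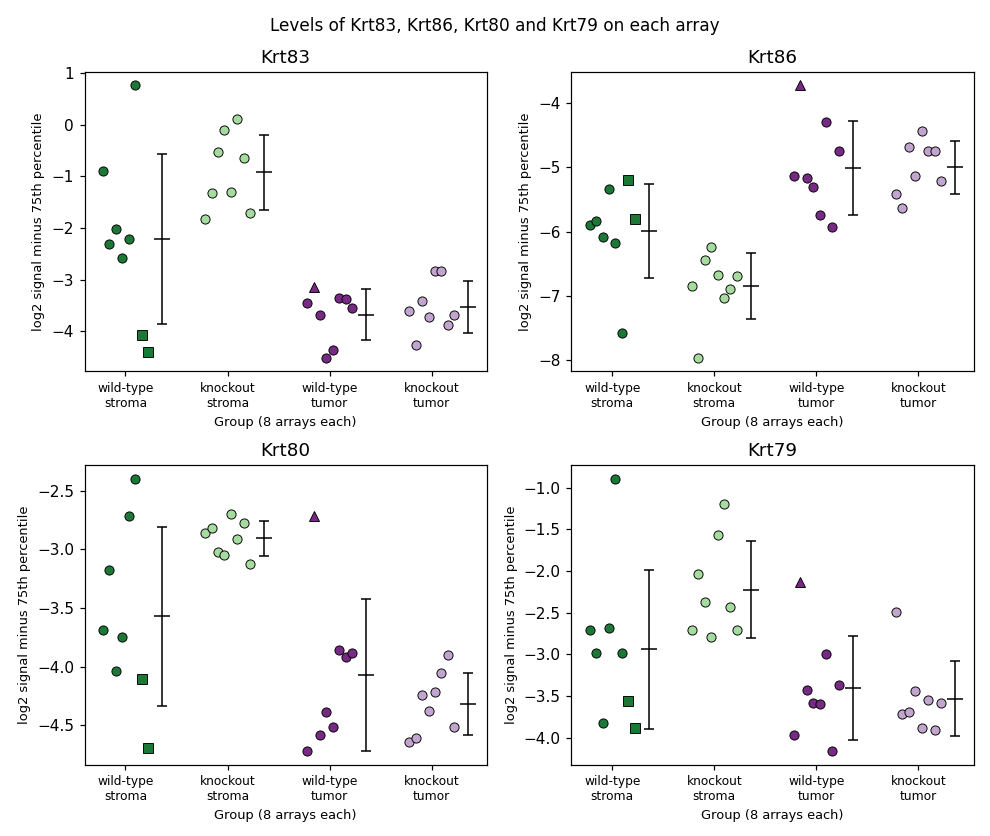
Levels of Krt83, Krt86, Krt80 and Krt79 on each array (points; log2 relative to the 75th percentile of the array) by group, with the mean ± SD of 8 arrays; squares are wild-type stroma 65 and 82 and triangles wild-type tumor 5. Krt83 in knockout stroma lies wholly above the tumor arrays, and Krt86 in knockout stroma, at -6.24 or lower, lies below them.

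The keratins of epidermis and wounds passed in no member between stroma and tumor apart from Krt79. Krt10, of the layers above the basal one, kept to a narrow range on all arrays, with medians of -0.88 and -0.92 in wild-type and knockout stroma, -1.11 and -0.83 in wild-type and knockout tumor, and no array outside -1.45 to -0.32. Krt2, of the upper epidermis, was detected on 3, 2, 2 and 0 arrays, and its highest value, -1.21, was wild-type tumor 5. Krt9, of palms and soles, was detected on 6 arrays.

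Krt5 was detected on 3, 1, 1 and 1 arrays of the 4 groups, with medians between -6.53 and -6.11 and single bright arrays at -3.60 (wild-type tumor 5) and -2.06 (knockout tumor 15). Krt14 was detected on 1, 0, 1 and 2 arrays with medians between -6.48 and -5.82. The basal pair was thus at or near background on most arrays of both tissues. Krt16, induced in wounds, was detected on all arrays with medians of -3.45, -3.74, -3.34 and -3.60 and a difference of -0.31 ± 0.15 (SE, adjusted p = 0.0785), which passed without wild-type stroma 82 (adjusted p = 0.0354) or the knockout tumor array whose number no stroma array carries (0.0424). Krt17, also of wounds, was detected on 4, 6, 5 and 5 arrays with medians from -5.43 to -4.80. Krt75, of the companion layer, Krt13, of internal stratified epithelia, and Krt23 were detected on 4, 4 and 6 arrays.

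Other epidermal genes varied in detection. Of 16 genes of keratinocyte adhesion and identity 6 were well above background on all 32 arrays and 2 on 0 arrays, and of the 11 tested 5 were higher and 2 lower in stroma. Jup, a plakoglobin of desmosomes that other tissues such as muscle also express, was higher by 2.99, and Perp, a membrane protein of desmosomes, by 3.09. The desmosome genes Dsp and Dsg1a were well above background on 0 arrays and Dsg3 on 1. Of 9 tested cornified envelope genes 3 were higher in stroma, Sbsn (1.05), Lor (1.16) and Dmkn (2.13). Of 4 keratins with a lettered name 1, Krt6a, was tested and did not pass. Of 3 tested mammary gland genes 1 was higher and 2 lower, and of 2 tested mesothelial genes 1, Msln, was lower in stroma (-3.20).

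Each host genotype was then taken alone. In knockout hosts 9 of 27 keratins passed, 7 higher in stroma and 2 lower, where 56.4% of all genes passed, 26.4% higher and 30% lower. In wild-type hosts 4 of 27 passed, 2 higher and 2 lower, where 28.5% of all genes passed, 10.5% higher and 18% lower. The median keratin difference was 0.68 in knockout and -0.23 in wild-type hosts, against 0.00 and -0.24 over all genes. Krt18 was higher in stroma by 6.53 ± 1.04 in knockout hosts (SE, adjusted p = 9.2e-06, 92.6-fold), with means of 2.70 and -3.83, and by 3.99 ± 1.04 in wild-type hosts (adjusted p = 0.00746, 15.9-fold), with means of 0.14 and -3.85. The test of the difference between genotypes is given further on.

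In knockout hosts the tissues did not overlap for Krt83, Krt80 and Krt86. The share of all genes without overlap was not counted, so this describes these genes only. Krt83 was higher in stroma by 2.61 (adjusted p = 6.76e-05, 6.12-fold), Krt80 by 1.41 (adjusted p = 0.000105, 2.66-fold) and Krt79 by 1.30 (adjusted p = 0.00214). Krt19 was higher by 2.38 ± 0.87 (SE, adjusted p = 0.0223, 5.22-fold), Krt31 by 1.10 (adjusted p = 0.0104) and Krt36 by 1.80 (adjusted p = 0.0162). Krt36 was well above background on 4 knockout stroma arrays and on 0 knockout tumor arrays, so against the lowest signal well above background its fold was at least 2.66. Krt86 fell by 1.85 (adjusted p = 1.82e-05) and was not well above background on any knockout stroma array, which makes tumor at least 2.21-fold higher. Krt25 fell by 1.29 (adjusted p = 0.0263). Its call ended without any 1 of knockout stroma 15, 49 or 51 or knockout tumor 12, 51, 81 or 99 (adjusted p 0.0536 to 0.0804) or once slides entered the fit as fixed blocks (-0.81, adjusted p = 0.25) or levels were scaled on bright probes (-1.12, adjusted p = 0.0542). The call for Krt19 ended without the 3 arrays against their sex label (2.26, adjusted p = 0.0657) and with normexp and quantile scaling (0.55, adjusted p = 0.197), that for Krt31 also with the latter (0.21, adjusted p = 0.153), and that of Krt36 ended without knockout stroma 51 (1.35, adjusted p = 0.0523). Krt8 was lower by 2.06 ± 0.95 in knockout stroma and did not pass (adjusted p = 0.0665). It passed without wild-type stroma 9 (0.0372), knockout stroma 99 (0.0231) or knockout tumor 15 (0.0273). Wild-type arrays lie outside this contrast, so leaving out 1 of them moved the adjusted p and not the difference, here and in the calls below. Krt27, well above background on 0 knockout stroma arrays and 1 knockout tumor array, did not pass (adjusted p = 0.0802), nor did Krt17 (0.86, adjusted p = 0.0849), though Krt27 did without wild-type tumor 5 (adjusted p = 0.0249) and Krt17 without knockout stroma 99 (1.17, adjusted p = 0.0131) or knockout tumor 95 (1.12, adjusted p = 0.0227). Krt23 (adjusted p = 0.0693) and Krt75 (adjusted p = 0.0877), both well above background on 0 knockout tumor arrays, passed without any 1 of 7 arrays (adjusted p 0.0364 to 0.0462) and of 2 arrays (0.0171 and 0.041).

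In wild-type hosts Krt83 was higher in stroma by 1.47 (adjusted p = 0.0287), and Krt86 fell by 0.99 (adjusted p = 0.0211) and Krt25 by 1.29 (adjusted p = 0.0477). Krt25 was well above background on 0 wild-type stroma arrays and 1 wild-type tumor array, so both means are mostly signal near background, and its call ended without any 1 of 20 arrays (adjusted p up to 0.118). The call for Krt83 ended without wild-type stroma 1 (0.0683) or 9 (0.0609) or wild-type tumor 4 (0.0571) or 68 (0.0579), and that for Krt86 without wild-type stroma 9 (0.0581) or wild-type tumor 5 (0.0509). Leaving out the 3 arrays that went against their sex label ended both calls as well (adjusted p = 0.0649 for Krt83 and 0.0712 for Krt86). Array weights ended the calls for Krt83 (0.70, adjusted p = 0.0967), Krt86 (-0.44, adjusted p = 0.291) and Krt25 (-1.08, adjusted p = 0.112), and normexp with quantile scaling those for Krt86 (-0.20, adjusted p = 0.107) and Krt25 (-0.15, adjusted p = 0.404). Krt8 was lower by 2.19 ± 0.95 (adjusted p = 0.0816), Krt80 higher by 0.50 (adjusted p = 0.169), Krt79 by 0.46 (adjusted p = 0.312) and Krt31 lower by 0.44 (adjusted p = 0.357). Without wild-type stroma 65 and 82 the keratins that passed numbered 8, with Krt8 at -3.53 (adjusted p = 0.00295), Krt80 at 0.96, Krt79 at 0.91 and Krt27 at -1.53 added. Calls over all genes rose as well, to a larger share than among the keratins, as counted further on. Krt8 also passed without wild-type stroma 65 alone (-2.73), 82 alone (-2.54) or knockout stroma 15 alone (-2.19). Knockout stroma 15 lies outside this contrast, so only the adjusted p moved. Krt80 passed without wild-type stroma 82 (0.70) or wild-type tumor 5 (0.73).

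**Figure D5:**
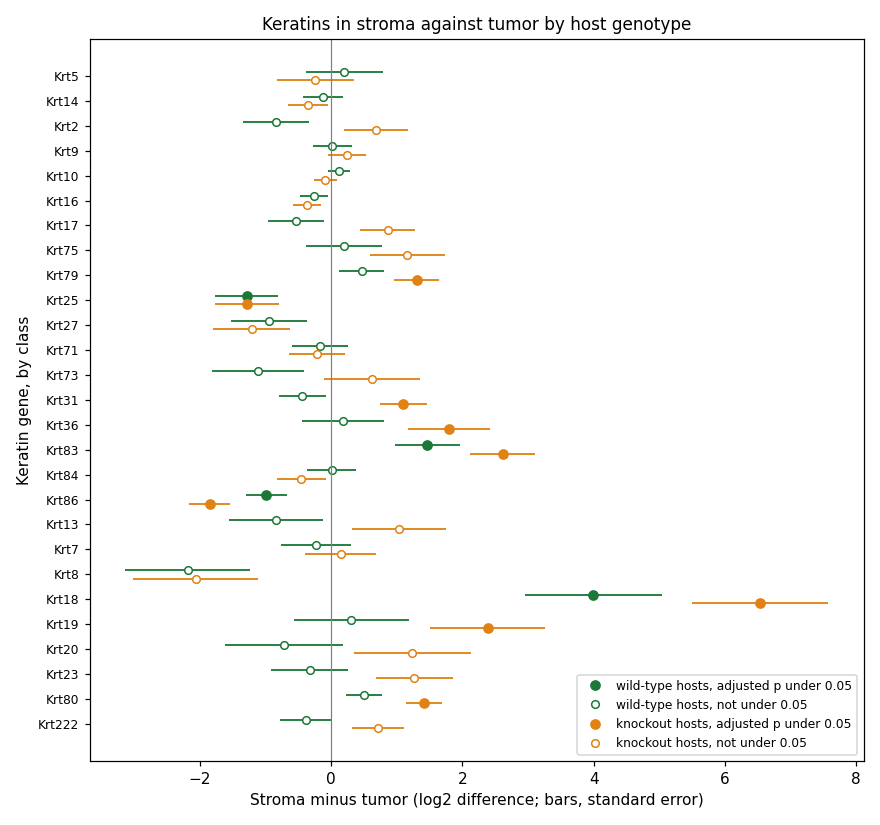
Log2 difference of stroma minus tumor ± SE for the 27 kept keratins in wild-type and in knockout hosts; filled points have an adjusted p under 0.05 and the vertical line is 0. Krt18 stands furthest to the right in both, at 3.99 and 6.53, and Krt8 lies left of 0 in both, at -2.19 and -2.06.

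The comparison of host genotypes asked whether EP2 in the host changes keratin levels in stroma or tumor. In stroma 0 of 17 tested keratins passed limma, as did 0% of 27270 genes, while 2 keratins and 27.3% of all genes had an unadjusted p under 0.05. With array weights in limma 10 of the 17 passed, a share no larger than that over all genes, whose count is given further on. The keratin median was 0.49 higher in knockout stroma against 0.10 over all genes. Krt80 had the smallest p, with a mean of -2.91 ± 0.15 over the 8 knockout and -3.57 ± 0.76 over the 8 wild-type stroma arrays (SD), higher in knockout by 0.66 ± 0.29 (SE, adjusted p = 0.166). Krt17 differed by 0.90 ± 0.41 (adjusted p = 0.179), Krt83 by 1.30 ± 0.63 (adjusted p = 0.192), Krt18 by 2.56 ± 1.24 (adjusted p = 0.193) and Krt79 by 0.71 ± 0.39 (adjusted p = 0.235). For Krt80, Krt83 and Krt79 all 8 knockout arrays lay above the wild-type median, and the groups overlapped. For Krt18 the limma p before adjustment over genes was 0.0571, and its difference was 1.58 without wild-type stroma 65 and 82. Downward, Krt16 had the smallest p (-0.32 ± 0.20, adjusted p = 0.288), then Krt8 (-0.68 ± 1.15, adjusted p = 0.698) and Krt10 (-0.06 ± 0.17, adjusted p = 0.831).

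Single arrays decided some of these. Without wild-type stroma 9, Krt83 (1.84, adjusted p = 0.00845), Krt80 (0.84, adjusted p = 0.024) and Krt31 (0.68, adjusted p = 0.0476) passed, where Krt31 over all arrays differed by 0.46 (adjusted p = 0.322). Over all genes 8587 then passed, a larger share than among the keratins. Without wild-type stroma 4, Krt79 passed (1.04, adjusted p = 0.0263), as did 4968 of all genes, again a larger share. Wild-type stroma 9 had the lowest mesenchymal and cell cycle levels of the stroma arrays and the highest skeletal muscle level, and it went against its sex label. On the 5 slides that held both genotypes of stroma, knockout was higher on 5 for Krt79 (0.28 to 1.43) and on 4 for Krt18 (-2.35 to 8.51), Krt83 (-2.59 to 3.54), Krt80 and Krt17. Of the other cell type lists no gene passed between these stroma groups. Their median difference was 1.60 for skeletal muscle, 2.01 for adipocytes, -1.46 for the cell cycle and -0.03 for mesenchymal markers, and their part in the keratin values was not tested.

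In tumor 0 of 15 tested keratins passed limma, as did 0% of 26336 genes, and 1 keratin and 3.63% of all genes had an unadjusted p under 0.05; array weights also gave 0. That keratin was Krt31, at -5.64 ± 0.47 in knockout and -4.55 ± 0.97 in wild-type tumor (SD, n = 8 each), lower by 1.08 ± 0.39 (SE, adjusted p = 0.973) and on each of the 3 slides that held both genotypes of tumor (-1.57 to -0.46). Krt20 (-1.38 ± 0.69) and Krt222 (-0.61 ± 0.39) followed downward, with Krt19 at -1.63 ± 1.09 and Krt8 at -0.81 ± 0.59 (adjusted p = 0.973 for each). Upward, Krt84 (0.39 ± 0.38), Krt10 (0.15 ± 0.17) and Krt83 (0.15 ± 0.25) had the smallest p (adjusted p 0.973 to 0.974). The groups overlapped for each of these keratins.

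Whether the genotype difference was larger in stroma than in tumor was tested directly. Of the 27 keratins 0 passed, as did 0% of 29697 genes, with 4 keratins and 20.2% of all genes at an unadjusted p under 0.05. With array weights 9 keratins passed, a share no larger than that over all genes, whose count is given further on. The keratin median was 0.91 against 0.18 over all genes. Krt31 had the smallest p (1.54 ± 0.51, adjusted p = 0.149), its mean being 0.46 higher in knockout stroma and 1.08 lower in knockout tumor. Krt17 (1.40 ± 0.60, adjusted p = 0.204) and Krt80 (0.91 ± 0.39, adjusted p = 0.205) followed. For Krt18 the difference between genotypes was larger in stroma by 2.54 ± 1.47 (adjusted p = 0.319), and for Krt83 by 1.15 (adjusted p = 0.340). Downward, Krt86 (-0.86 ± 0.44, adjusted p = 0.266), Krt10 (-0.21 ± 0.24, adjusted p = 0.619) and Krt84 (-0.46 ± 0.53, adjusted p = 0.622) had the smallest p. Without wild-type stroma 9, Krt31 (1.76, adjusted p = 0.0142), Krt83 (1.69, adjusted p = 0.0208) and Krt80 (1.09, adjusted p = 0.0386) passed. Over all genes 5226 then passed, a larger share than among the keratins.

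Pairs of genes were compared over the 16 arrays of each tissue, 36 relations in all. Krt8 and Krt18 had a Pearson r of 0.29 in stroma (permutation p = 0.279, adjusted 0.677) and a Spearman rho of 0.44 (permutation p = 0.0854, adjusted 0.279). Without the 2 arrays farthest from the median of Krt8 the r was -0.02, and without wild-type stroma 65 and 82 it was 0.80 (n = 14), so the value rests on which arrays are kept. In tumor the r was 0.21 and rho 0.28 (adjusted p = 0.703 and 0.553). Krt5 and Krt14, the basal pair, had an r of 0.27 in stroma and 0.40 in tumor (adjusted p = 0.677 and 0.420). A slide held at most 4 stroma or 4 tumor arrays, too few for a value within slides.

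Some pairs were chosen after their values were seen and are given as a description. Krt18 and Jup had an r of 0.84 over the 16 stroma arrays (0.69 without wild-type stroma 65 and 82), Krt83 and the muscle actin Acta1 0.86 (0.80), and Krt83 and Krt80 0.76 (0.48). Krt18 and Acta1 had an r of 0.67 (0.34). In stroma the Spearman rho was 0.55 for Krt18 and Jup, 0.81 for Krt83 and Acta1, 0.62 for Krt83 and Krt80, and 0.30 for Krt18 and Acta1. Over the tumor arrays the r of these pairs was 0.62, 0.27, 0.43 and 0.68 in the same order. Krt8 and Msln, a gene of mesothelium and some tumors, had an r of 0.83 in tumor and 0.68 in stroma. The genes outside the keratins with the highest r to Krt8 over the 16 stroma arrays, of 15933 candidates, were Abhd17c (0.89), 4930556A17Rik, Thyn1, Dbndd1 and Bola2 (0.85). For Krt18, a gene also chosen after its values were seen, they were Ces2b (0.93), Chrna1, Rras, Vezt and Dapk2 (0.92), and for Krt14 they were Wdr25 (0.76), Gm6040, Ttc34, Gm3002 and Fscn3 (0.70). Over the tumor arrays the r of these genes ran from -0.08 to 0.62 for Krt8 and from -0.55 to 0.64 for Krt18. For Krt14 it ran from 0.03 to 0.58. Krt14 was well above background on 1 of the 16 stroma arrays, so its values rest mostly on signal near background. Arrays of a tissue share differences in tissue makeup and depth, which such values include.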

How the data were processed

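RNA was labelled with Cy3 and hybridised to 1-colour arrays, and per the submitters' processing notes the scans were read by Agilent Feature Extraction 10.7.3.1. The authors deposited scanner files with spot intensity values, background-subtracted per the file headers, and a matrix of log2 values of the same arrays, which the authors deposited without stating its scaling. Its columns matched the scanner values after 1 constant for each probe and array. Over 56605 probes, 99.4% of single values in stroma and 99.98% in tumor matched to within 0.01. Its direction is thus that of the signal, each probe is centred, and the column medians ran from -0.31 to 0.56.

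Processed signals were taken as log2 minus the array's 75th percentile (584 to 1727), without control spots and flagged outliers. Of 56605 probes 32994 were named through RefSeq (GRCm38.p6), and 7 keratins had more than 1 probe. Fits used limma 3.58.1 in R 4.3.3 with statmod 1.5.0 on genes that the scanner marked well above background on 4 or more of the fitted arrays, with at most 2 missing values, with 1 mean for each tissue, genotype and sex: all 32 arrays for contrasts of tissue and for the interaction, 16 for each genotype comparison. Of the kept keratins, 4 values were missing (Krt2 on wild-type stroma 65, Krt71 on wild-type tumor 5 and knockout tumor 95, Krt73 on knockout tumor 95), and the fits dropped them. All 4 spots were marked well above background and remain in the detection counts. P-values were adjusted by Benjamini-Hochberg over all genes tested. Relations used 100000 permutations, two-sided. Python 3.11.15, pandas 2.3.3, numpy 2.4.6, scipy 1.17.1 and matplotlib 3.10.9 were used, and the fit was tested on simulated data. An "at least" fold uses, for the group not above background, the higher on each array of the lowest signal well above background and the probe's own.

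The keratins, the gene lists, the named pairs and the arrays said to stand apart were chosen with earlier results of these data known. Values are named for the 2 keratins of each class with the highest mean level, a rule for what to print and not a ranking of expression, those passing anywhere, the 3 lowest p upward and downward in a comparison without calls, and up to 3 genes of each other list; some list genes are given by count only, and other genes named were chosen after their values were seen. Alternatives covered scaling, filters, probes, variance model, slide, sex, pairing and left-out arrays. Slides numbered 6 and scan days 2, each slide scanned on 1 day.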

Additional observations from a re-analysis of the deposited data

Results flagged for a closer look

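Within the 4 groups of 8 arrays, 108 sets of keratin values were tested for a single array whose gap to its nearest neighbour was large against the range of its group, and 23 had one. Chance gives about 1 in 20 for sets chosen without regard to their values, which these were not: 4 keratins, Krt13 and Krt75 among them, reached the limit of 4 arrays only with wild-type tumor 5, so the count is a description. Wild-type tumor 5 was the array for 8 of them, each on the high side: Krt27 at -0.27, Krt13 at -1.06, Krt2 at -1.21, Krt7 at -2.70, Krt80 at -2.71, Krt5 at -3.60, Krt36 at -4.14 and Krt75 at -4.20. The inner root sheath, internal, epidermal, ductal and basal types are all among these genes, and the array had the most probes well above background (75.2%).

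Other arrays stood high for single keratins. In wild-type stroma these were Krt79 on array 4 (-0.89), Krt17 on array 68 (-4.07), Krt14 on array 68 (-4.57) and Krt13 on array 9 (-4.59). In knockout stroma they were Krt73 on array 51 (-2.92), Krt7 on array 12 (-4.47) and Krt71 on array 59B (-4.55). In knockout tumor they were Krt5 on array 15 (-2.06), Krt79 on array 12 (-2.49) and Krt71 on array 99 (-5.28). Low single values were Krt8 on knockout tumor 15 (-2.66), Krt9 on knockout stroma 12 (-6.91), Krt86 on wild-type stroma 9 (-7.59) and on knockout stroma 49 (-7.97), and Krt9 on knockout tumor 12 (-7.58). Knockout tumor 15, the array named for Krt8 and Krt5, had the highest skeletal muscle level of the tumor arrays (6.04), and wild-type stroma 9, the array named for Krt13 and Krt86, the highest of the stroma arrays (9.0). The part of skeletal muscle in these values was not tested.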

How the results depend on the processing

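Among named keratin differences, direction held under every alternative except in comparisons of genotype with no call: Krt10 in stroma (-0.06) was 0.01 when scaled on bright probes and 0.07 without the arrays against their sex label, Krt16 in stroma (-0.32) was 0.01 over all its probes, Krt8 in stroma (-0.68) was 0.66 without wild-type stroma 65 and 82, and Krt8 in tumor (-0.81) was 0.04 with slide as a fixed block. Leaving out 1 array gave -0.13 to 0.05 for Krt10 and -1.39 to 0.13 for Krt8 in stroma, the latter without knockout stroma 15. The cause was not tested.

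With array weights the keratins that passed were 13 for stroma against tumor, 17 in knockout hosts and 1 in wild-type hosts, 10 for genotype in stroma and 9 for genotype by tissue. Without the 3 arrays against their sex label these were 8, 11, 1, 1 and 3. In wild-type hosts normexp with quantile scaling gave 2, and leaving out wild-type stroma 65 and 82 gave 8. Where no count over all genes is given, these keratin counts describe the setting only. Leaving out 1 array gave 7 to 11 keratins for stroma against tumor, 7 to 13 in knockout hosts and 1 to 6 in wild-type hosts. The wild-type count was 2 without wild-type stroma 1 or wild-type tumor 68, and 1 without wild-type stroma 9. Over all genes the calls ran from 17088 to 17913, from 15865 to 17433 and from 6262 to 10977. With all arrays they were 17671, 16756 and 8455. Genotype in stroma and genotype by tissue gave 0 to 3 keratins each (3 in each without wild-type stroma 9), and genotype in tumor gave 0. Over all genes, genotype in stroma had 17124 calls with array weights, 3989 with all 32 arrays in 1 fit, 5574 without the arrays against their sex label, and 4968 and 8587 without wild-type stroma 4 or 9; genotype by tissue had 13366 with array weights, 4247 without the arrays against their sex label and 5226 without wild-type stroma 9; stroma against tumor in wild-type hosts had 13247 without wild-type stroma 65 and 82. In knockout hosts the keratins higher in stroma were 7 of 9, against 5 of 8 with normexp, 7 of 11 with quantile scaling and 9 of 10 on bright probes, and in wild-type hosts 2 of 4 against 2 of 2, 3 of 4 and 2 of 3. Bright-probe scaling moved the median of all genes from -0.13 to -0.02 between tissues and from 0.00 to 0.17 in knockout hosts, and normexp moved it from 0.18 to 0.01 for genotype by tissue.

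With the replicate block 9, 9, 4 and 0 keratins passed for stroma against tumor, in knockout hosts, in wild-type hosts and for genotype by tissue. Numbers are shared by 15 stroma and tumor pairs, of which 8 had deviations correlated over 0.1 and 5 correlated best with their own number. Each shared number had the same labelled genotype and sex in both tissues. These values do not decide whether the numbers pair the samples, and the labels do not say whether a number marks 1 mouse. The main fit left such pairing out. Adding a limit of 2-fold left 6, 9 and 3 calls. The share over all genes is not given for this limit or the replicate block, so these counts are a description. Second probes gave differences of array means of opposite sign for Krt13 (0.09 and -0.65) and Krt75 (0.68 and -0.24). Keratins well above background on few arrays, such as Krt25 and Krt27, are limited by signal near background.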
